A study of Mus musculus with 6 samples.

Results

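The replication-dependent histone genes are the multicopy genes that supply the linker histone H1 and the core histones H2A, H2B, H3 and H4 while DNA is copied. They were taken as every row of the expression table whose mouse Ensembl ID carries a protein-coding symbol opening with Hist1h, Hist2h, Hist3h or Hist4h, which gave 66 of the 55631 genes in the table. The annotation lists 67 such symbols, and Hist1h2ba was not analysed here. The members comprise 6 H1, 18 H2A, 17 H2B, 12 H3 and 13 H4 genes. By locus, 53 lie in the Hist1 cluster, 10 in Hist2, 2 in Hist3 and 1 in Hist4. H1f0, H1fx, H1fnt and H1foo do not carry these symbols and are not members.

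RNA was measured by bulk sequencing of palatal shelves, the paired outgrowths that form the secondary palate, from mouse embryos at E14.5, mid-gestation. The control group held 3 libraries of genotype p130Cas fl/fl, which the titles call WT although the floxed alleles are present. The KO group held 3 libraries of genotype p130Cas fl/fl; CAG-Cre, so both groups carry the floxed p130Cas alleles and differ by the Cre transgene. CAG is a synthetic promoter active in most cell types, so deletion is not limited to one cell type of the shelf, and a Cre-only control is not among the samples. The labels do not say whether a library came from 1 embryo or several, so p-values measure the spread between these libraries, which may be technical. Values are FPKM, fragments per kilobase of gene scaled to the library's mapped fragments. Sequencing depth is unknown, and the smallest value above 0 was no higher than 0.118 FPKM in any library. Markers of palatal mesenchyme were above 0 in all 6 libraries for 10 of 10 genes. Bcar1, the gene for p130Cas, read 1.80, 1.97 and 2.09 FPKM in control libraries 1, 2 and 3 and 1.69, 1.69 and 1.31 FPKM in KO libraries 1, 2 and 3. Its 2 groups did not overlap, but its log2 fold change of -0.21 ± 0.11 (SE) had an adjusted p of 1.00 in limma, so the labels were not checked beyond a lower mean in the KO group.

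Most replication-dependent histone mRNAs end in a short hairpin in place of a poly(A) tail. The hairpin is bound by SLBP, and a complex containing the U7 snRNP (with LSM10 and LSM11) cuts the transcript just past it, while NPAT and CASP8AP2 (FLASH) serve transcription and processing at the histone locus body. Some members are also known to be read through past the hairpin and polyadenylated in cells that have left the cycle, whereas replication-independent variants such as H3f3b and H2afz carry ordinary poly(A) tails in all phases. The labels do not say whether poly(A) RNA was selected when the libraries were made, so a low level of a member in the tissue and a low yield of its RNA in the library cannot be told apart.

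The hairpin was searched in GENCODE M21 transcripts of GRCm38 as a perfect stem of 6 bases, opening with GG, around a loop of 4 bases that opens with TT. It was found in 44 of the 66 members, 21 to 58 bases past the stop codon with a median of 31. Of the 22 members without a match, 14 had an annotated 3' untranslated region under 10 bases, which leaves no room for it. The sequences below show the 6 forms found, 5' to 3' on the gene's strand, with the stem in capitals and the loop in lower case.
Hist3h2ba (chr11:58949349-58949364, plus strand): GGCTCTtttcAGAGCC
Hist1h3c (chr13:23745047-23745062, minus strand): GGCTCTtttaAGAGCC
Hist2h2ac (chr3:96220418-96220433, minus strand): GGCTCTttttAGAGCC
Hist1h4n (chr13:21831798-21831813, minus strand): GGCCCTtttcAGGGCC
Hist1h4i (chr13:22040966-22040981, minus strand): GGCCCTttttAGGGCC
Hist1h4b (chr13:23757366-23757381, plus strand): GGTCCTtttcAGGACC
The form of Hist3h2ba was shared by 26 members, of which 3 were H1, 10 H2A, 8 H2B and 5 H3 genes. The form of Hist1h3c was found in 1 H1, 2 H2B and 3 H3 genes, and that of Hist2h2ac in 1 H2A gene. All 11 H4 genes with a match carried one of the other 3 forms, in 7, 2 and 2 genes, and no gene of another type did. The H4 forms thus differed from those of the other types in the stem. The length of every match was fixed by the search.

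An annotated transcript that ran at least 100 bases past the hairpin (or, with no hairpin, had a 3' untranslated region of at least 100 bases) and held AATAAA or ATTAAA in its last 50 bases was found for 16 members. The sequences below give 30 bases at or close to the end of such transcripts for 5 of the 6 members with the highest level, with the polyadenylation signal in capitals.
Hist3h2ba (chr11:58949503-58949532, plus strand): tattAATAAAtttggttcaattttggccac
Hist1h1c (chr13:23740338-23740367, plus strand): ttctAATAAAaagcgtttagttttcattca
Hist3h2a (chr11:58956793-58956822, plus strand): gcccAATAAAataagagtacgtgtataaca
Hist1h4i (chr13:22040636-22040665, minus strand): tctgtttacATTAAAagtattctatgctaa
Hist2h2be (chr3:96223709-96223738, plus strand): ttattattAATAAAgttaccgattagtttc
The remaining member of the 6, Hist1h2bc, had an annotated 3' untranslated region of 742 bases in which neither a hairpin nor a signal was found by these rules. An extended end was not always found with a high level, since 10 of the 16 members with one had a mean under 1 FPKM. The median member level was 0.572 FPKM over these 16 genes and 0.671 FPKM over the other 50. Of the summed level of all members, the 16 held 51.8% and the other 50 held 48.2%. A mean of at least 5 FPKM was reached by 4 of the 16 and 1 of the 50.

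Levels of the members were low and uneven. The mean over 6 libraries was at least 1 FPKM in 25 members, 20 of them between 1 and 5 FPKM and 5 above that, while 37 were above 0 but under 1 FPKM and 4 were listed at 0 in all libraries. The median member stood at 0.646 FPKM. The 6 highest, Hist3h2ba, Hist1h1c, Hist3h2a, Hist1h2bc, Hist1h4i and Hist2h2be, made up 54.2% of the summed level of all 66. The summed level of the members was 111.5 FPKM on average, or between 0.0253% and 0.0297% of the FPKM total of a library. The 12 replication-independent histone genes summed to 1634 FPKM, 14.7 times as much, with 362 FPKM for H3f3b, which encodes H3.3, and a lowest value of 6.22 FPKM for H3f3c. The highest member, Hist3h2ba, ranked 4177 among all genes in the table.

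**Figure D1:**
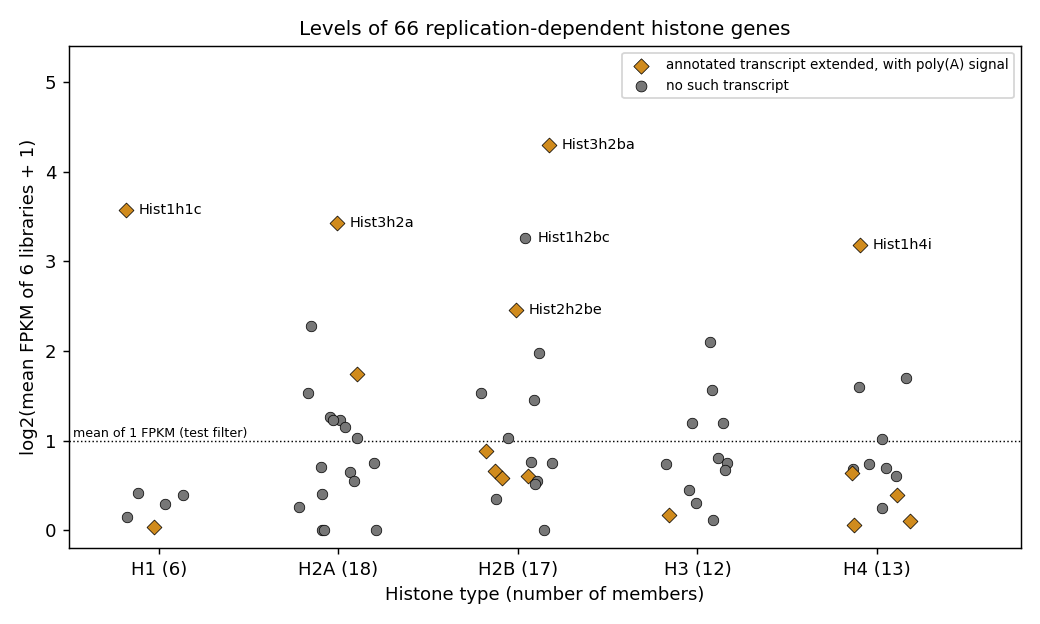
Level of each of the 66 members, as log2 of the mean FPKM over 6 libraries plus 1, by histone type. Diamonds mark members with an annotated extended transcript that holds a polyadenylation signal, and circles the others; 5 of the 6 named genes are diamonds, but 10 diamonds lie under the dotted line at a mean of 1 FPKM.

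The members of one type resemble each other closely, which bears on how far single copies can be read. The closest member of the same coding length shared a median of 98.7% of coding bases over the 59 members that had one, and 35 members had over 50% of their 50-base words in another gene's transcripts. The median share of such words was 73.0% for H2A, 62.0% for H3, 59.4% for H2B, 39.5% for H4 and 1.13% for H1. All words were shared in 7 members, among them Hist2h2aa1 and Hist2h2aa2, which have identical coding sequences. How the authors' counting treated fragments that fit several copies is not given in the sources used here, so the split between copies, as in this pair, is uncertain. Of the 25 members at or above 1 FPKM on average, 15 had over 50% shared words.

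Among the 6 H1 members, nearly all of the RNA came from 1 gene. Hist1h1c, which encodes H1.2, held 91.4% of their summed level. Among the linker histone genes outside the members, H1f0 and H1fx were higher, at a mean of 197 FPKM for H1f0 and 108 FPKM for H1fx. Hist1h1c read 9.71, 10.7 and 10.6 FPKM in control 1, 2 and 3 and 9.39, 13.3 and 11.5 FPKM in KO 1, 2 and 3. KO 2 was the highest and KO 1 the lowest library, so the KO values enclosed the controls. Its log2 fold change, on the scale of log2(FPKM + 1) as all fold changes here, was 0.12 ± 0.12 (SE). Hist1h1b, which encodes H1.5, read 0.439, 0.250 and 0.226 FPKM in the controls and 0.347, 0.390 and 0.383 FPKM in the KO libraries. Hist1h1a, which encodes H1.1, read 0.358, 0.442 and 0.213 FPKM in the controls and 0.258, 0.438 and 0.172 FPKM in the KO libraries. Both overlapped between the groups at levels too low to test. The testis-specific Hist1h1t was listed at 0 in 5 libraries and read 0.145 FPKM in KO 1, and Hist1h2aa, an H2A gene of the testis, was at 0 in all 6. Of 6 male germ cell and testis markers, Tnp1 and Stra8 were at 0 throughout and 2 were above 0 in all libraries, and the list summed to between 0.283 and 1.16 FPKM.

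H2A genes held 24.2% of the members' sum. Hist3h2a was the highest at 9.09, 9.51 and 10.7 FPKM in control 1, 2 and 3 and 9.07, 10.96 and 8.91 FPKM in KO 1, 2 and 3, with a log2 fold change of -0.02 ± 0.10. Hist1h2ag read 2.77, 4.81 and 4.38 FPKM in the controls and 3.81, 3.58 and 3.71 FPKM in the KO libraries, a difference of -0.06 ± 0.16. Control 1 was the low library of Hist1h2ag, and its KO libraries lay within the control range. Hist1h2ae read 2.26, 2.74 and 2.72 FPKM in the controls and 1.70, 2.85 and 1.82 FPKM in the KO libraries. Here KO 2 was the highest library and the other 2 KO libraries the lowest. Hist1h2af read 1.36, 1.13 and 1.11 FPKM in the controls and 1.01, 2.00 and 1.43 FPKM in the KO libraries, which overlapped.

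Hist1h2ao (ENSMUSG00000094248, chr13:21810465-21810944, plus strand) had the smallest p among the members. Its level was 1.92, 1.58 and 1.18 FPKM in control 1, 2 and 3 and 0.970, 0.933 and 0.722 FPKM in KO 1, 2 and 3. Every KO library lay below every control library, as in 5.79% of all genes tested. The group means were 1.56 ± 0.373 (SD, n = 3) and 0.875 ± 0.133 (SD, n = 3). Its log2 fold change of -0.44 ± 0.14 had an adjusted p of 0.97 in limma, over all genes tested. Its coding sequence is identical to that of Hist1h2ap, and 93.5% of its words were shared, so its level cannot be read apart from its near copies. Hist1h2ap lies in the same block and had a log2 fold change of -0.19 with overlapping groups.

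H2B genes held the largest share of the members' sum, at 39.8%. Hist3h2ba (ENSMUSG00000056895, chr11:58948920-58949533, plus strand), the highest of all members, read 19.5, 20.1 and 20.7 FPKM in control 1, 2 and 3 and 16.3, 19.3 and 16.3 FPKM in KO 1, 2 and 3. The groups did not overlap, but KO 2 lay just under the lowest control. Means were 20.1 ± 0.616 (SD, n = 3) in controls and 17.3 ± 1.75 (SD, n = 3) in KO libraries, and the log2 fold change of -0.21 ± 0.08 had an adjusted p of 1.00 in limma. In a bulk sample, fewer cells of a type and less RNA per cell cannot be told apart. Only 22.1% of the words of Hist3h2ba were shared with other genes, against 93.5% for Hist1h2ao. Hist1h2bc read 8.39, 8.23 and 8.63 FPKM in the controls and 7.28, 10.4 and 8.66 FPKM in the KO libraries. Hist2h2be read 4.32, 4.36 and 4.47 FPKM in the controls and 4.29, 4.99 and 4.398 FPKM in the KO libraries. In both genes the controls lay close together, with KO 1 below and KO 2 above all of them. KO 3 lay just above the controls in Hist1h2bc and among them in Hist2h2be. The genes had log2 fold changes of 0.04 ± 0.12 and 0.04 ± 0.09.

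H3 genes held 10.2% of the sum, and none reached 5 FPKM. Hist1h3c led them with 2.87, 4.55 and 3.57 FPKM in control 1, 2 and 3 and 2.44, 3.70 and 2.61 FPKM in KO 1, 2 and 3, a log2 fold change of -0.25 ± 0.17. Hist1h3h read 0.963, 1.91 and 2.62 FPKM in the controls and 1.94, 2.19 and 2.07 FPKM in the KO libraries. Hist1h3i read 0.905, 1.93 and 1.14 FPKM in the controls and 0.872, 1.46 and 1.41 FPKM in the KO libraries. All 3 overlapped between the groups, and the controls of Hist1h3h spread more widely than its KO libraries.

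H4 genes held 15.2% of the sum. Hist1h4i, with 47.6% of the H4 level, read 7.26, 7.90 and 9.12 FPKM in control 1, 2 and 3 and 7.06, 7.88 and 9.12 FPKM in KO 1, 2 and 3, so the groups were nearly superimposed. Hist1h4b read 1.90, 2.88 and 2.73 FPKM in the controls and 1.65, 2.28 and 2.00 FPKM in the KO libraries, a log2 fold change of -0.23 ± 0.14. Hist1h4k, with the highest log2 fold change among tested members, read 1.18, 1.17 and 2.40 FPKM in the controls and 1.73, 3.04 and 2.65 FPKM in the KO libraries. Control 3 stood above KO 1 for Hist1h4k, and its log2 fold change of 0.44 ± 0.22 had an adjusted p of 1.00 in limma.

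**Figure D2:**
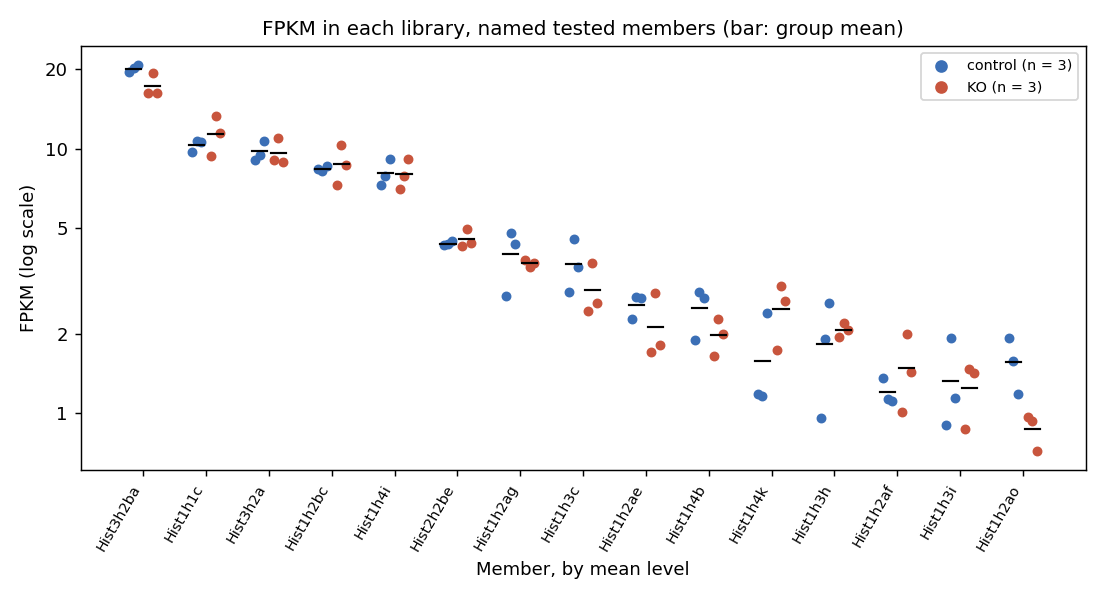
FPKM on a log axis in each of 3 control (blue) and 3 KO (red) libraries for the 15 named members tested, with a bar at each group mean. The groups are separate only for Hist3h2ba and Hist1h2ao, where every KO point lies below every control point.

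The level also differed between loci. The 2 genes of the Hist3 locus (chr11:58948920-58956830) held 25.5% of the members' sum. The 53 genes of Hist1 (chr13:21715763-23934851) held 69.3%, with a median member of 0.683 FPKM. Hist1 falls into a block of 23 members and a block of 30, with 1487 kb between them. Their median members stood at 1.03 and 0.645 FPKM, while their sums ran the other way, at 34.5 and 42.7 FPKM.

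The 10 genes of Hist2 (chr3:96219865-96270132) held 5.16%, and Hist2h2be alone made up 77.7% of that locus. Hist2h2aa2, Hist2h2ab and Hist2h2bb were listed at 0 in all 6 libraries. Hist2h2aa1 read 0, 0.866 and 0.502 FPKM in control 1, 2 and 3 and 0.776, 0 and 0.624 FPKM in KO 1, 2 and 3. Hist2h2ac read 0.157, 0.444 and 0.295 FPKM in the controls and 0, 0.138 and 0.165 FPKM in the KO libraries. Hist2h2ac was thus lower in the KO group on average, with control 1 inside the KO range. The H3 genes of this locus, Hist2h3c2, Hist2h3c1 and Hist2h3b, had means of 0.368, 0.129 and 0.0833 FPKM, and Hist2h4 was above 0 in control 1 and 2 only, at 0.119 and 0.121 FPKM. Hist4h4, the only gene of its locus (chr6:136801553-136804415), reached at most 0.182 FPKM and was at 0 in 3 libraries.

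H2A and H2B genes often lie head to head and share the stretch between their starts. There were 11 such pairs with starts 176 to 302 bases apart, and the H2B gene was the higher in 6 of them. In 2 pairs the partners were far apart in level. Hist1h2bc averaged 8.60 FPKM and Hist1h2ac 0.319 FPKM, a ratio of 26.9, and Hist2h2be averaged 4.47 FPKM and Hist2h2ac 0.200 FPKM, a ratio of 22.4. In the other 9 pairs the ratio of H2B to H2A lay between 0.367 and 1.65. Hist1h2ac, the lower of its pair, has the hairpin form of Hist3h2ba. Its annotated transcript of 2482 bases runs 2010 bases past the hairpin. Its 3' untranslated region, 2058 bases, is longer than that of Hist1h2bc. FPKM is scaled by gene length, so the ratio depends on the length assigned to each gene. The part of transcript ends in these ratios was not tested. The windows below show the 250 bases before the RefSeq start (GRCm38.p6) of the H2A gene for 2 pairs. They are the most unequal pair and a pair with a ratio of 1.35, Hist1h2ah and Hist1h2bk, at 1.40 and 1.89 FPKM. Capitals mark 4 motifs on either strand. They are the TATA box, spelled TATAAA, the CCAAT box, the octamer, spelled ATTTGCAT, and the H1 box, spelled AAACACA.
Hist1h2ac (chr13:23683960-23684209, minus strand): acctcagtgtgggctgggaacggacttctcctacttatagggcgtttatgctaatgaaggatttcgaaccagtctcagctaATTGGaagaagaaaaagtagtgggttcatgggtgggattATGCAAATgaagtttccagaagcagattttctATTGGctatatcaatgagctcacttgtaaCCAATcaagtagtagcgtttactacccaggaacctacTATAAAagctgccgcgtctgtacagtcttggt
Hist1h2ah (chr13:22035644-22035893, minus strand): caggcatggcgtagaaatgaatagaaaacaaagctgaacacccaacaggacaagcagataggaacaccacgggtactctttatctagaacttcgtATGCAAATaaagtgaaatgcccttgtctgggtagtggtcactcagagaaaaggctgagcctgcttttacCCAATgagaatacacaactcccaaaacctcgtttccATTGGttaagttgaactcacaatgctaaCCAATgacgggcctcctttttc
Each window held the octamer 1 time and the CCAAT box 3 times. The TATA box was found 1 time in the printed Hist1h2ac window and 0 times in that of Hist1h2ah. The longer Hist1h2ah window used in the next paragraph, which runs past the RefSeq start, did hold the TATA box. This contrast thus depends on where the window ends and does not show that the Hist1h2ah promoter lacks the box. The octamer was present between the starts of 4 of the 11 pairs, both unequal pairs among them. The pair closest to equality, Hist1h2ad and Hist1h2bf at 0.680 and 0.683 FPKM, was not one of these 4. A match shows only that the letters are present in the window.

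The same motifs were counted on both strands in 300-base RefSeq windows, from 250 bases before the start to 50 after it, for 61 promoters of 60 members and for all 32851 promoters. The CCAAT box was found in 85.2% of member promoters and 37.4% of all. It was in all promoters of the H1, H2A, H2B and H3 genes but in 3 of 12 H4 promoters. TATAAA was found in 55.7% of member promoters and 13.6% of all. The octamer, a site for POU2F1 (OCT1), was found in 7 of 17 H2A and 6 of 16 H2B promoters and in none of the other types, against 1.74% of all promoters. The H1 box was found in 5 of 6 H1 promoters and 7.18% of all. Windows of head-to-head partners overlap, so the H2A and H2B counts are not independent. The end of the window was found in an annotated transcript of the gene for 43 of the 61 promoters, so RefSeq and GENCODE starts can differ.

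The KO libraries were compared with the controls over the 25 members with a mean of at least 1 FPKM, in a limma fit of all 14714 genes that passed this filter. No member reached an adjusted p under 0.05, where 49 genes, or 0.333% of those tested, did. The lowest adjusted p of a member was 0.97. At an unadjusted p under 0.05 there were 2 members, Hist1h2ao and Hist3h2ba, beside 4.01% of all genes. KO libraries lay wholly below controls in the same 2 members, beside 5.79% of all genes, and wholly above in 0 members, beside 3.27%. The log2 fold change was below 0 in 17 of 25 members, or 68.0%, beside 59.4% of all genes. Its median was -0.06 over the members and -0.02 over all genes tested. The median moved to -0.15 without control 1, to -0.02 without control 2 and to -0.16 without KO 2, and the count at an unadjusted p under 0.05 to 4, 1 and 5. It was 3 without KO 1 and 1 without KO 3. Standard errors of the members ran from 0.08 to 0.24 with a median of 0.14, so a failed test does not show that a level was the same. The 10 tested members outside the 15 chosen for naming had log2 fold changes from -0.29 to 0.07.

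**Figure D3:**
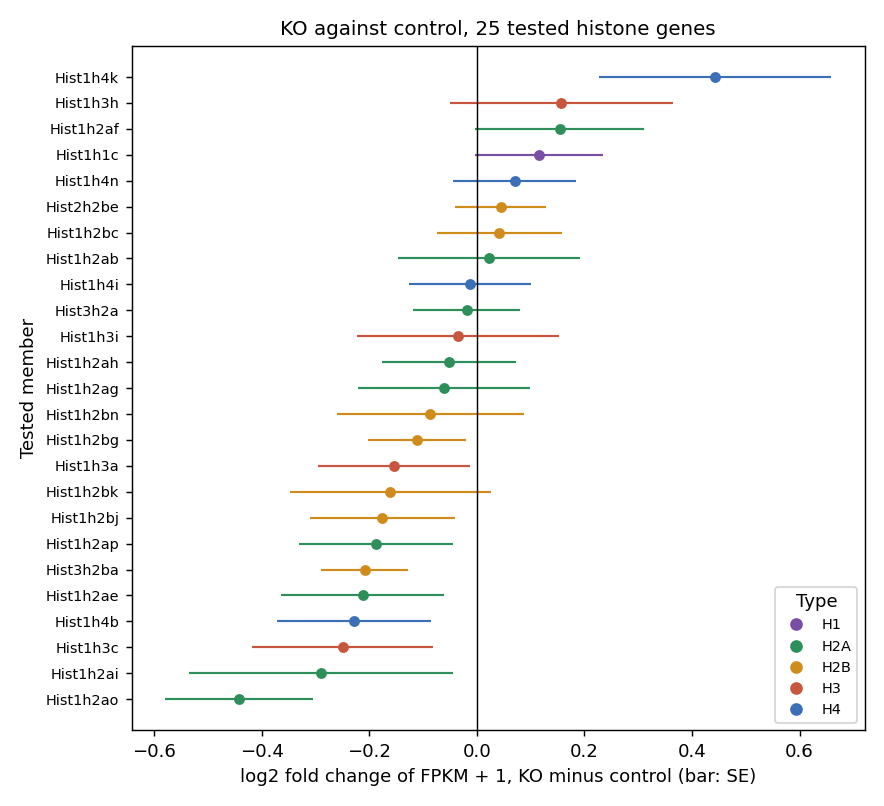
log2 fold change of FPKM + 1, KO minus control, with its standard error, for each of the 25 tested members, coloured by histone type and ordered by size. Values lie between -0.44 for Hist1h2ao and 0.44 for Hist1h4k, 17 of them below 0, and the types are mixed along the order.

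Since fragments may be split between copies, the members were also summed within each library, including those too low to test. The sum was 102.5, 120.1 and 120.8 FPKM in control 1, 2 and 3 and 97.6, 122.2 and 105.9 FPKM in KO 1, 2 and 3. KO 2 was the highest library, and KO 1 the lowest, with control 1 between KO 1 and KO 3. The group means were 114.5 ± 10.4 (SD, n = 3) and 108.6 ± 12.5 (SD, n = 3), a ratio of KO to control of 0.949. The difference between these means was smaller than the SD of either group. By type the ratio was 1.10 for H1, 0.924 for H2A, 0.930 for H2B, 0.872 for H3 and 0.993 for H4. Groups overlapped in each type.

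**Figure D4:**
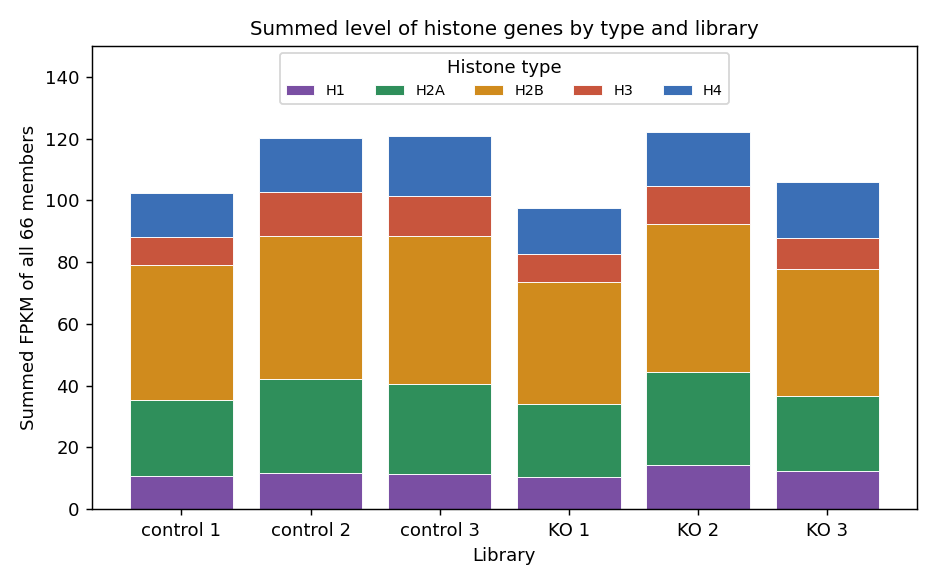
Summed FPKM of all 66 members in each library, stacked by histone type from H1 at the base to H4 at the top. Bars run from 97.6 FPKM in KO 1 to 122.2 FPKM in KO 2, and the 2 groups overlap.

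The median member differed between libraries within both groups. The median deviation of the 25 tested members from their control mean, in log2(FPKM + 1), was -0.13, 0.02 and 0.04 in control 1, 2 and 3 and -0.17, 0.11 and -0.15 in KO 1, 2 and 3. The 12 replication-independent genes gave -0.06, 0.07 and -0.03 in the controls and -0.11, 0.10 and -0.10 in the KO libraries. Both sets were thus lowest in KO 1 and highest in KO 2. The 44 genes of the S phase and DNA replication list gave 0.02, 0.02 and -0.02 in the controls and -0.14, 0.01 and 0.06 in the KO libraries, so KO 3 was low in the members and not in this list. The summed level of 9 erythroid markers, all above 0 in every library, ran from 17691 to 33688 FPKM in controls and from 17268 FPKM in KO 1 to 40013 FPKM in KO 2. The summed level of 7 leukocyte markers was 33.1 to 36.9 FPKM in controls and 42.9 to 57.6 FPKM in KO libraries, the only one of 7 marker lists whose groups did not overlap. The part of either list in the member levels was not tested.

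Genes that make, process and package histone mRNA and protein were measured in the same fit. Of 29 genes for transcription and 3' processing, 28 were tested, with 0 called in limma, 11 above and 17 below 0 and a median of -0.01. Slbp, the hairpin binder, read 40.9, 36.2 and 37.2 FPKM in control 1, 2 and 3 and 35.5, 36.4 and 42.4 FPKM in KO 1, 2 and 3. Npat, the coactivator at the histone locus body, read 7.44, 6.50 and 6.78 FPKM in the controls and 7.11, 5.66 and 7.77 FPKM in the KO libraries. Neither differed beyond the spread within groups. The log2 fold changes of Casp8ap2, Lsm10, Lsm11 and Hinfp, which encodes an activator of H4 genes, lay between -0.05 and 0.06, all with overlapping groups. At an unadjusted p under 0.05 in limma this list held 2 of its 28 tested genes, beside 4.01% of all genes. They were named after their values were seen. E2f1, a cell cycle transcription factor, read 18.5, 18.3 and 17.5 FPKM in the controls and 14.97, 15.6 and 16.6 FPKM in the KO libraries, and Srrt, which encodes the cap-binding partner ARS2, had a log2 fold change of -0.16 ± 0.06. Their groups did not overlap, with KO lower, as in 5.79% of all genes tested, and adjusted p = 1.00 for each in limma.

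Histone chaperones were measured in 24 genes, with 12 above and 12 below 0 and a median of 0.00. Tonsl, which reads new histone H4 at replication forks, had a log2 fold change of -0.14 ± 0.08, and Ssrp1, a subunit of the FACT chaperone, 0.07 ± 0.06. The replication-independent genes lay 4 above and 8 below 0, with -0.16 ± 0.10 for H3f3a, which encodes H3.3, and -0.11 ± 0.10 for H2afv, which encodes an H2A.Z form. The S phase list lay 13 above and 31 below 0 with a median of -0.02, equal to that of all genes, and gave -0.09 ± 0.07 for Pola2, a subunit of the DNA polymerase that primes synthesis, and -0.12 ± 0.09 for Gins3, a subunit of the replicative helicase. In limma, 0 genes of these 3 lists were called, and 0 were at an unadjusted p under 0.05. Of 7 members known for polyadenylated transcripts, 5 were tested, 3 above and 2 below 0, with a median of 0.04 and 0 called, and 1, Hist3h2ba, at an unadjusted p under 0.05.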

How the data were processed

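Total RNA of palatal shelves was the starting material of 6 libraries, 3 control and 3 KO. The deposited values are FPKM computed by the authors, in 1 table; the unit comes from that table's name. The build mm10 and DESeq2 version 1.5.2 are named per the submitters' processing notes. The aligner, counter, annotation release, strand setting, RNA selection and treatment of fragments that fit several genes were each not given in the sources used here. Depth is unknown, so no counting interval is given.

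Libraries were grouped by title. Symbols and transcripts came from GENCODE M21 (GRCm38), in which 50824 gene IDs matched and 4807 did not, and promoters from RefSeq (GRCm38.p6), matched for 60 of 66 members. Values were analysed as log2(FPKM + 1) for the 14714 genes averaging 1 FPKM or more. The tool was limma, version 3.58.1, run under R 4.3.3 (empirical Bayes with trend, two-sided, genotype only) and Benjamini-Hochberg adjustment over all of them at a threshold of 0.05. The fit was tested on simulated data. Python version 3.11.15 and pandas version 2.3.3 computed sums, levels and motifs.

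The members and lists were chosen with earlier results of these data known. Named members were the 3 highest of each type, those called, the 4 with the smallest unadjusted p in each direction, those past 0.58 in log2 fold change with no overlap, the Hist2, Hist3 and Hist4 members, and the testis-associated Hist1h1t and Hist1h2aa. Outside the members, Bcar1, Npat, Casp8ap2, Slbp, Lsm10, Lsm11, Hinfp and the 2 with the smallest p of each other list were named. The alternatives covered the pseudocount, filter, scaling, variance model, replicate block, each library left out, and the members summed, 2 of the last chosen after seeing the data.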

Additional observations from a re-analysis of the deposited data

How the results depend on the processing

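No member was called by limma under any of 17 alternatives, in which 5 to 62 members were tested and the lowest adjusted p was 0.192, with library weights. Those weights, from 0.373 for KO 2 to 2.52 for control 2, moved the members' median log2 fold change from -0.06 to -0.17 and the count at an unadjusted p under 0.05 from 2 to 7. The median ranged from -0.16 to -0.02 when each library was left out in turn, and was -0.01 with a filter at a mean of 5 FPKM. The summed ratio of KO to control ranged from 0.889 to 0.997 when each library was left out, and was 0.916 without the 6 highest members.

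With the replicate number as a replicate block, 0 members were called, the median stayed at -0.06 and 4 members were at an unadjusted p under 0.05. It changed no call of a member. Same-numbered libraries had correlations of deviations of 0.02, 0.31 and -0.24 across genes, so the numbers were not taken as pairs, and not every library correlated best with its own number. Of 245 values of the 15 named and tested members under the alternatives, 17 had the opposite sign, in 8 members, and 0 were called. With a pseudocount of 0.01, the change of Hist1h2ao was -0.81 and that of Hist1h4k 0.69. Without control 1, Hist1h3h was at -0.08. FPKM without counts leaves the depth behind values near 1 unknown.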
